A study of Sus scrofa with 36 samples.

Results

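The infarct zone of the pig left ventricle, 1 week after an infarct made at 2 days of age, was compared with the left ventricle of sham-operated pigs of the same age. The comparison uses the 3 libraries labelled Young Late IZ (infarct zone) and the 3 labelled Young Late Sham, which are 6 of the 36 libraries of the series and were chosen by their labels alone. Young Late IZ pigs were Yorkshire-landrace piglets in which branches of the left anterior descending and left circumflex arteries were tied off for good through a left lateral thoracotomy. The labels describe this operation as giving an infarct of 15 to 20% of the left ventricular wall. Young Late Sham pigs had their surgery at the same age and gave tissue of the anterior left ventricular wall. Pigs of both groups received the pain killer ketoprofen and the antibiotic enrofloxacin, were 9 days old at harvest, and gave each library from 1 animal. The sham pigs are other animals than the infarcted pigs. The labels give neither the steps of the sham operation nor the site in the wall of the IZ sample, so an effect of the infarct and an effect of the sampled site cannot be told apart. The question of the series is how far the heart of a piglet can regenerate, and this comparison covers the healing stage of the younger pigs.

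Newborn pigs and mice can replace lost heart muscle for a short time after birth, mostly by division of cardiomyocytes that are already there, and later in life heal by scar. In a healing infarct, neutrophils and macrophages remove dead muscle, and fibroblasts then lay down a collagen-rich matrix while vessels grow back. Surviving cardiomyocytes near an infarct are known to switch on contractile genes of the fetus and to turn down genes for burning fat.

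PolyA RNA was read as stranded libraries, and the deposited table gives raw read counts per gene. The IZ libraries held 21.0, 16.8 and 15.8 M counts and the sham libraries 26.0, 8.1 and 19.1 M, in the order of replicates 1, 2 and 3 that is used for all values. RNA integrity numbers were 7, 6.8 and 6.9 in IZ and 7.2, 7.6 and 6.6 in sham. Genes of the mitochondrial genome took 25.0, 30.4 and 33.7% of the IZ counts and 36.6, 35.1 and 42.6% of the sham counts. IZ 1 and Sham 2 were prepared in library batch 1 and the other 4 libraries in batch 2. Levels are given as CPM, which are counts scaled to library size with TMM factors.

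IZ 1 stood apart by transcripts of the lung. Surfactant protein C (SFTPC), made by alveolar cells, had 8735 counts in IZ 1, against 1 and 0 in IZ 2 and IZ 3, and 0, 0 and 2 in the shams. No other library of the 36 had more than 10. The lung genes SFTPD, AGER and SLC34A2 had 245, 525 and 282 counts in IZ 1. The summed level of the lung markers was 415 CPM in IZ 1 and at most 0.137 CPM in the 5 other libraries. The haemoglobin gene HBB, whose reads can be shared with other globin genes, was also highest in IZ 1, with 831, 151 and 142 CPM in IZ and 276, 93.7 and 89 CPM in sham. For some of the results that leaned on IZ 1, values or calls without it are given. Sham 2 was the shallowest of the 36 libraries, and Sham 1 was the sham nearest to IZ, with correlations of 0.925 to 0.952 (Pearson, log2 CPM over genes of single library pairs).

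Summed markers of macrophages, fibroblasts and smooth muscle were higher in IZ, and those of cardiomyocytes and endothelium lower. The 8 macrophage markers, all of them called higher, summed to 555 to 765 CPM in IZ and 62.5 to 65.3 CPM in sham. The 6 fibroblast markers, 4 of them higher and 0 lower, summed to 1900 to 3111 CPM in IZ and 349 to 651 CPM in sham. Most of that sum was the collagen gene COL1A1, with 2595, 1376 and 1491 CPM in IZ and 334, 191 and 223 CPM in sham. PDGFRA, also on that list, had a negative log2 fold change (-1.45) and was not called. All 4 contractile smooth muscle markers were higher, at 1477 to 2149 CPM in IZ and 202 to 298 CPM in sham. Cardiomyocyte markers summed to 40970 to 56889 CPM in IZ and 57505 to 81868 CPM in sham, and 3 of 5 were lower. Endothelial markers summed to 156 to 196 CPM in IZ and 193 to 306 CPM in sham, with 2 of 4 lower. Neutrophil and T cell markers had low levels in both groups but were higher in IZ, with 2 of 3 and 2 of 4 called higher and 0 lower. Neutrophil markers summed to 4.99 to 14.9 CPM in IZ and 0.481 to 0.933 CPM in sham. T cell markers summed to 3.79 to 4.12 CPM in IZ and 1.72 to 2.40 CPM in sham, where the T cell gene CD3D had no count. In bulk tissue, fewer cells of a type and less RNA per cell cannot be told apart. The part of this shift in marker levels in each result below was not tested.

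**Figure D1:**
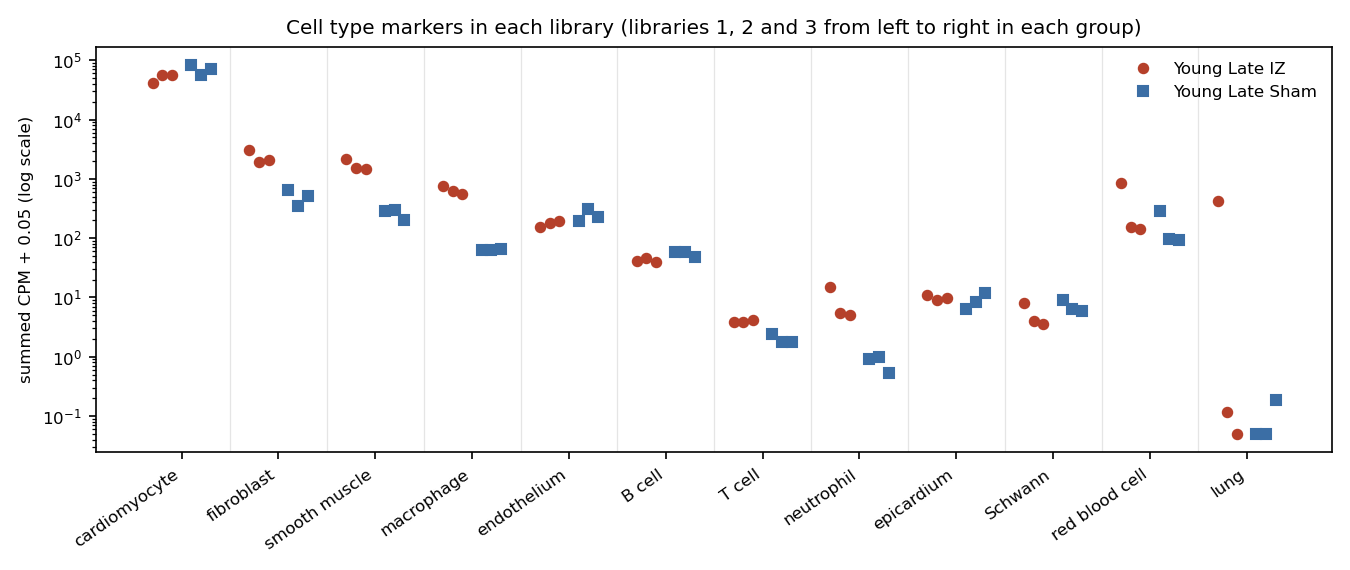
Summed level of each marker list (CPM + 0.05, log scale) in each of the 3 Young Late IZ and 3 Young Late Sham libraries. Macrophage sums of 555 to 765 CPM in IZ lie above the 62.5 to 65.3 CPM of sham, and lung transcripts reach 415 CPM in IZ 1.

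Of 14537 genes tested with the quasi-likelihood test of edgeR, 4390 passed a Benjamini-Hochberg adjusted p of 0.05, which is 30.2% of those tested. Called genes that were higher in IZ numbered 2499 (17.2%), and 1891 (13.0%) were lower. Beyond a 2-fold change, 1802 were higher and 1038 lower. Values in brackets, and those by which a gene rose, are log2 fold changes of IZ over sham ± an approximate standard error (SE), with n = 3 libraries per group. This SE, here and for all differences below, is the absolute log2 value divided by the square root of the test's F value. It is unreliable, and can be too small, where the log2 value is near 0. The words rose and fell are kept for called genes. IZ and sham libraries did not overlap for 6942 genes (47.8%). The count of calls leaned on single libraries. It was 2807 without IZ 1, 3138 without Sham 2 and 3383 without Sham 3, and 2271 genes (51.7% of the calls) kept their call whichever of the 6 libraries was left out. Across the 12165 tested genes with a symbol, the median log2 fold change was 0.03, beside which the medians of gene lists are set.

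**Figure D2:**
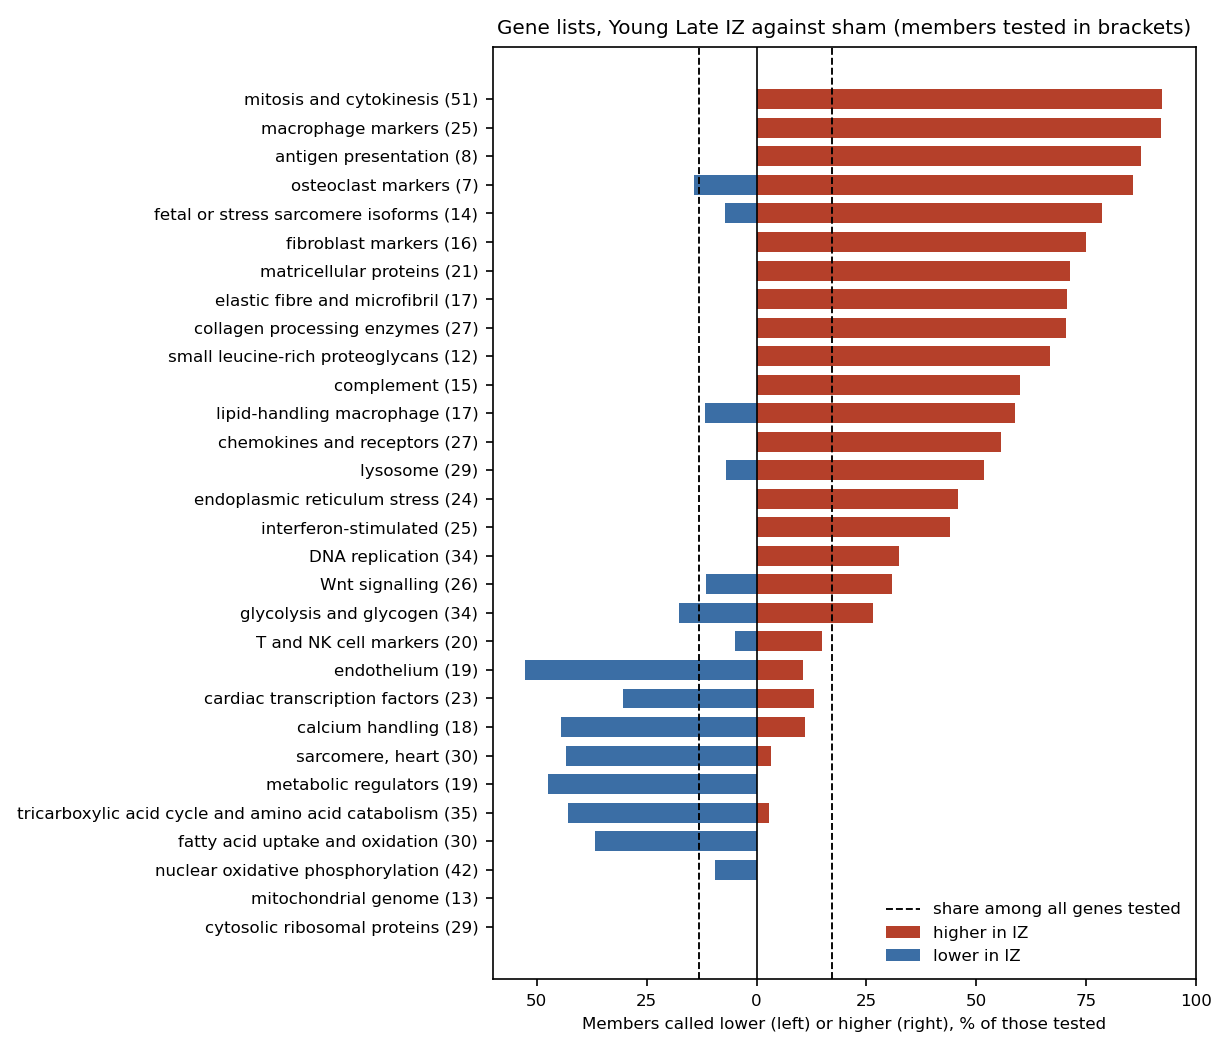
Percentage of the tested members of each gene list that were called higher or lower in Young Late IZ than in Young Late Sham, with dashed lines at the shares over all tested genes. The macrophage list at 92.0% and the mitosis list at 92.2% lie far above the 17.2% line for higher genes, and the heart sarcomere list at 43.3% and the metabolic regulators at 47.4% lie above the 13.0% line for lower genes.

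Most matrix genes rose, and collagens of cartilage and tendon were among the steepest. Of 11 fibrillar and cartilage collagens, 7 rose and 2 fell, with a median of 2.01, and 1 fell without IZ 1, IZ 3, Sham 1 or Sham 2. COL1A1, the main chain of collagen I, had 2595, 1376 and 1491 CPM in IZ, against 334, 191 and 223 CPM in sham, a log2 fold change of 2.87 ± 0.38, adjusted p = 4.63e-06. COL3A1, the collagen of young scar, had 2360, 1324 and 1610 CPM in IZ and 354, 197 and 376 CPM in sham (2.51 ± 0.39, adjusted p = 2.17e-05). Every IZ library exceeded every sham for both genes, and IZ 1 was the highest. Collagens that are scarce in heart muscle moved further. COL8A2, a short-chain collagen, had 13.1, 5.75 and 5.57 CPM in IZ and 0.15, 0.133 and 0.137 CPM in sham (5.80 ± 0.67, adjusted p = 5.01e-07). COL9A3, a chain of cartilage collagen IX, rose by 4.89 ± 0.67 and COL11A1, which starts collagen fibrils in cartilage, by 4.53 ± 0.68. Reads of ACAN, the cartilage proteoglycan aggrecan, were few, with 9, 9 and 7 counts in IZ and none in sham, a pooled level at least 7.02-fold higher against a floor of 3 counts over the sham group. The fall of COL5A3, at 28.7, 27.6 and 22.8 CPM in IZ and 31, 81.3 and 36.4 CPM in sham (-0.90 ± 0.28, adjusted p = 0.0146), ended without IZ 3 or Sham 2, at values in a range of -1.15 to -0.35 over the 6 libraries left out in turn.

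Matricellular proteins, which sit in the matrix and act on cells without building fibres, gave 15 risen and 0 fallen genes of 21 (median 1.77). CILP, the cartilage intermediate layer protein, had 254, 186 and 172 CPM in IZ, against 3.05, 2.67 and 2.88 CPM in sham (6.14 ± 0.55, adjusted p = 2.51e-08). THBS4, a thrombospondin of tendon and heart, had 842, 696 and 662 CPM in IZ, against 15.3, 17.2 and 16 CPM in sham (5.51 ± 0.48, adjusted p = 1.93e-08). Both were tight within each group, so that the lowest IZ library lay far above the highest sham. Tenascin C (TNC) rose by 4.95 ± 0.71, with 156, 70.1 and 83 CPM in IZ and 4.15, 4.13 and 1.85 CPM in sham. SPP1 (osteopontin), which macrophages also make, rose by 7.04 ± 1.08, the Wnt-induced CCN4 by 6.23 ± 0.81, COMP, a tendon and cartilage protein, by 5.63 ± 0.83, and periostin (POSTN), made by activated fibroblasts, by 2.97 ± 0.59. Fibronectin (FN1) was the exception among well-known scar proteins. It had 110, 56.7 and 59.8 CPM in IZ and 22.5, 143 and 14.7 CPM in sham, Sham 2 lay above every IZ library so that the groups overlapped, and the log2 fold change was 0.35 ± 0.85, adjusted p = 0.792. Without Sham 2 the FN1 value was 2.02 (adjusted p = 0.13), and over the libraries left out in turn it ranged from -0.12 to 2.02.

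Enzymes that modify and link collagen rose in 19 of 27 cases and fell in none (median 1.18). CTHRC1, a secreted regulator of collagen deposition, rose by 5.77 ± 0.74, with 42.4, 15 and 24 CPM in IZ and 0.25, 0.8 and 0.618 CPM in sham. The crosslinking oxidase LOXL1 had 157, 108 and 110 CPM in IZ and 17.3, 10.1 and 9.2 CPM in sham (3.34 ± 0.32, adjusted p = 7.5e-08). Its relatives LOX and LOXL2 rose by 2.35 ± 0.46 and 1.86 ± 0.27, the prolyl hydroxylase subunit P4HA3 by 3.58 ± 0.45, and the collagen chaperone SERPINH1 by 1.59 ± 0.28. No call was made for PLOD2, a lysyl hydroxylase, at 14.1, 7.65 and 24.5 CPM in IZ and 3.75, 9.6 and 9.68 CPM in sham (1.03 ± 0.51, adjusted p = 0.129).

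Small leucine-rich proteoglycans, which space collagen fibrils, rose in 8 of 12 cases (median 1.59). Fibromodulin (FMOD) had 224, 141 and 130 CPM in IZ, against 8.74, 4.53 and 7.96 CPM in sham (4.51 ± 0.50, adjusted p = 5.58e-07), and biglycan (BGN) 1137, 668 and 631 CPM in IZ, against 73.9, 81.9 and 60.5 CPM in sham (3.49 ± 0.44, adjusted p = 2.33e-06). Neither gene overlapped between groups. Of 17 elastic fibre and microfibril genes, 12 rose, led by LTBP2, which binds fibrillin (2.83 ± 0.41), and the microfibril proteins MFAP2 (2.77 ± 0.37) and MFAP4 (2.57 ± 0.31). The scaffold proteins themselves were not called. Elastin (ELN) had 212, 123 and 122 CPM in IZ and 50.7, 104 and 61.1 CPM in sham (1.09 ± 0.52, adjusted p = 0.111), and fibrillin 1 (FBN1) 20.8, 23.7 and 28.4 CPM in IZ and 26.7, 29.6 and 19.7 CPM in sham (-0.06 ± 0.51). MGP, an inhibitor of calcification, rose by 3.28 ± 0.50.

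Among 29 matrix proteases and inhibitors, 13 rose and 1 fell. The largest rise was that of MMP9, a gelatinase of neutrophils, macrophages and osteoclasts, with 323, 51.4 and 42.4 CPM in IZ and 0.0999, 0 and 0.137 CPM in sham (10.44 ± 1.49, adjusted p = 4.28e-06). IZ 1 lay far above the other IZ libraries, and the log2 value without it was 8.83 (adjusted p = 5.99e-05). ADAM12, a protease of activated mesenchyme, rose by 4.82 ± 0.64, the inhibitor TIMP1 by 3.22 ± 0.63, and MMP2, a gelatinase of fibroblasts, by 2.11 ± 0.31. The 1 fallen gene was MMP11, at 37.9, 67.3 and 55.6 CPM in IZ and 282, 381 and 328 CPM in sham (-2.63 ± 0.44, adjusted p = 6.22e-05). Of 16 basement membrane genes, 3 were higher and 4 lower (18.8% and 25.0%, beside 17.2% and 13.0% of all genes), with a median of -0.19. Without IZ 2, IZ 3 or Sham 2, 2 basement membrane genes were lower. COL18A1, the source of endostatin, rose by 1.46 ± 0.25, while nidogen 1 (NID1), which ties laminin to collagen IV, fell, with 67.4, 77.8 and 86.1 CPM in IZ and 136, 175 and 145 CPM in sham (-0.98 ± 0.21, adjusted p = 0.000763).

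Fibroblast genes rose in 12 of 16 cases and fell in none, with a median of 2.09, or 1.85 with a member that has no sham count set at its bound. The secreted Wnt antagonists stood out by size. SFRP2 had 4654 counts in IZ and 1 in sham, which is a pooled ratio of 3920-fold (95% counting interval 703 to 155000), at 141, 55.1 and 60.1 CPM in IZ. SFRP1 had 221, 138 and 142 CPM in IZ, against 11.5, 12.4 and 9.82 CPM in sham (3.90 ± 0.38, adjusted p = 7.5e-08). FRZB had 96.5, 34.4 and 43.8 CPM in IZ, against 0.699, 4.93 and 0.481 CPM in sham (5.13 ± 0.96, adjusted p = 0.000216), and SFRP4 rose by 1.95 ± 0.39. AXIN2, a gene that Wnt signals switch on, fell, with 3.05, 3.11 and 3.04 CPM in IZ and 5.7, 6.8 and 7.07 CPM in sham (-1.08 ± 0.30, adjusted p = 0.00751). Over the 26 Wnt genes, 8 rose and 3 fell (30.8% and 11.5%, beside 17.2% and 13.0% of all genes, median 0.52). Without IZ 1, 5 Wnt genes rose.

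CRABP2, which carries retinoic acid to its receptor, had 27.6, 17.9 and 18.2 CPM in IZ and 0.15, 0 and 0.206 CPM in sham (7.18 ± 0.76, adjusted p = 7.5e-08). Its relative CRABP1 had a pooled ratio of 149-fold (95% counting interval 50.7 to 724), with 304, 123 and 103 counts in IZ and 0, 1 and 2 in sham. ALDH1A2, the enzyme that makes retinoic acid in the epicardium of embryos, rose by 1.86 ± 0.30, with 29.4, 25.6 and 27.6 CPM in IZ and 11.2, 3.87 and 6.93 CPM in sham. RUNX1, a transcription factor of blood and of injured heart, rose by 5.43 ± 0.62, the homeobox genes MEOX1 by 3.70 ± 0.45 and PRRX1 by 2.32 ± 0.39, and PI16, a fibroblast surface gene, by 3.37 ± 0.61. The epicardial and fibroblast factor TCF21 rose by 1.11 ± 0.26. By contrast PDGFRA, the receptor used as a fibroblast marker, was not called by edgeR, at 1.08, 1.42 and 0.434 CPM in IZ and 1.6, 5.87 and 1.58 CPM in sham (-1.45 ± 0.66, adjusted p = 0.0962). The groups did not overlap, and DESeq2 called it lower (-1.60, adjusted p = 0.0271).

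The contractile smooth muscle and myofibroblast list had 7 risen and 1 fallen gene of 13 (median 0.93). Calponin (CNN1), an actin-binding protein of smooth muscle, had 1040, 768 and 756 CPM in IZ and 140, 74.1 and 49.4 CPM in sham (3.28 ± 0.36, adjusted p = 4.36e-07). Smooth muscle actin (ACTA2), the usual myofibroblast marker, had 376, 293 and 286 CPM in IZ and 45.7, 75.9 and 56.6 CPM in sham (2.43 ± 0.38, adjusted p = 2.54e-05). TAGLN rose by 2.48 ± 0.40. For these genes the IZ libraries were all above the shams. MYOCD, the coactivator that switches on smooth muscle genes, fell to 6.18, 5.41 and 6.08 CPM in IZ, against 15.2, 21.9 and 13 CPM in sham (-1.49 ± 0.48, adjusted p = 0.0183), a call lost without IZ 1, IZ 2 or Sham 2 (range -1.64 to -1.26).

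Of 32 growth factors, 13 rose and 5 fell (median 0.92), with 3 fallen without IZ 1. IGF1, a survival and growth factor made by macrophages and fibroblasts, had 15, 9.34 and 9.11 CPM in IZ and 0.5, 0 and 0.755 CPM in sham (4.51 ± 0.57, adjusted p = 2.48e-06). Pleiotrophin (PTN) rose by 3.68 ± 0.48 and midkine (MDK), its relative, by 2.13 ± 0.40. NRG1, the neuregulin that makes cardiomyocytes of newborn animals divide, was scarce, with 17, 17 and 6 counts in IZ and 1, 0 and 0 in sham, a pooled ratio of 33.7-fold (95% counting interval 5.71 to 1360). TGF-beta and activin genes rose in 9 of 23 cases and fell in none (median 0.33). Their ligands led. TGFB3 had 68.6, 42.7 and 43 CPM in IZ and 10.6, 6.93 and 5.29 CPM in sham (2.74 ± 0.33, adjusted p = 1.29e-06), INHBA, the activin A subunit, rose by 3.14 ± 0.45, TGFB2 by 1.71 ± 0.32 and TGFB1 by 0.94 ± 0.23. The fallen factors included VEGFA, the main signal for vessel growth, with 47.1, 85.1 and 88.1 CPM in IZ and 191, 300 and 288 CPM in sham (-1.82 ± 0.43, adjusted p = 0.00216), and VEGFD (-1.39 ± 0.36). Both had no overlap between groups.

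Macrophage genes rose almost without exception. Of 25 markers, 23 rose and 0 fell (92.0%, beside 17.2% of all genes), with a median of 3.68, and 21 to 24 rose when each library was left out. The median was 2.91 without IZ 1, the library with lung transcripts. The lysosomal CD68 had 64.1, 26.3 and 27.8 CPM in IZ and 1.75, 2.53 and 1.65 CPM in sham (4.37 ± 0.53, adjusted p = 1.62e-06). CSF1R, the receptor for the growth factor of macrophages, had 159, 108 and 84.3 CPM in IZ and 16.8, 20.3 and 13.4 CPM in sham (2.81 ± 0.39, adjusted p = 7.1e-06). IZ 1 was the highest library for both, and the IZ and sham ranges were apart. The scavenger receptor MSR1 rose by 5.32 ± 0.76, CD163, another scavenger receptor, by 2.03 ± 0.43 (1.20 without IZ 1), and lysozyme (LYZ) by 7.10 ± 1.25. The 2 genes not called were FOLR2 and LYVE1, which mark macrophages resident in the unhurt heart. FOLR2 had 21.6, 22.7 and 16.3 CPM in IZ and 19.1, 10.3 and 6.93 CPM in sham (0.73 ± 0.40, adjusted p = 0.169, but called without Sham 1, in a range of 0.44 to 1.26), and LYVE1 2.16, 2.17 and 2.53 CPM in IZ and 2.95, 3.33 and 4.87 CPM in sham (-0.71 ± 0.47, adjusted p = 0.267). TIMD4, also a gene of resident macrophages, had 25, 21 and 18 counts in IZ and 3, 0 and 0 in sham, a pooled ratio of 18-fold (95% counting interval 5.88 to 89.5).

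Genes of macrophages that take up lipid rose in 10 of 17 cases and fell in 2 (median 1.13). APOE, the lipid carrier, had 597, 425 and 332 CPM in IZ, against 12.6, 14.1 and 12.8 CPM in sham (5.10 ± 0.73, adjusted p = 9.59e-06). Per kilobase of gene length its mean level was 311 CPM in IZ, above the 288 CPM of COL1A1, and 9.11 CPM in sham, where COL1A1 had 39.4. TREM2, the receptor that senses lipid debris, had 16.1, 3.18 and 4.56 CPM in IZ and a pooled ratio of 191-fold (95% counting interval 52.5 to 1580), from 1, 0 and 1 sham counts. IZ 1 held 343 of its IZ counts, against 47 and 63 in IZ 2 and IZ 3. Its log2 fold change of 7.26 was 6.15 without IZ 1. GPNMB, a lysosomal glycoprotein, rose by 4.15 ± 0.73 and galectin 3 (LGALS3) by 4.65 ± 0.77. LGALS3 had 110, 33.6 and 36.3 CPM in IZ and 2.25, 4.27 and 1.17 CPM in sham. Without IZ 1 the values of GPNMB and LGALS3 were 3.48 and 3.82. The 2 fallen genes were LPL, the lipoprotein lipase that heart muscle also makes (-0.85 ± 0.27, adjusted p = 0.0186), and the cholesterol exporter ABCA1 (-2.06 ± 0.73, adjusted p = 0.0331). These falls were lost when a library was left out, that of LPL without IZ 1 or Sham 2 (range -0.97 to -0.73) and that of ABCA1 without IZ 2, IZ 3, Sham 2 or Sham 3 (range -2.77 to -1.34).

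Genes known from osteoclasts, the bone-resorbing relatives of macrophages, had reads in all 3 IZ libraries. Of 7 tested, 6 rose and 1 fell, with a median of 7.01, or 4.92 with 3 members that have no sham count at their bounds, and 3 rose without IZ 1. ACP5, the tartrate-resistant phosphatase, had 196, 125 and 103 CPM in IZ, against 1.05, 3.47 and 0.892 CPM in sham (6.48 ± 0.91, adjusted p = 7.86e-06). DCSTAMP, which lets macrophages fuse into giant cells, had 60, 25 and 23 counts in IZ and none in sham, at least 30.3-fold higher. The proton pump subunit ATP6V0D2, with 74, 25 and 26 counts in IZ and none in sham, was at least 35.1-fold higher, and OCSTAMP at least 10.1-fold higher. Calls of the last 2 were lost without IZ 1. The fall was that of TNFRSF11A (RANK), the receptor for the osteoclast-inducing signal, with 3.84, 3.38 and 5.14 CPM in IZ and 6.5, 12.5 and 8.92 CPM in sham (-1.16 ± 0.31, adjusted p = 0.00615), and this call was lost without Sham 2, where the value was -0.90. Among 29 lysosomal genes 15 rose and 2 fell (median 0.59), with 8 risen without IZ 1. Cathepsin B (CTSB) had 1513, 886 and 811 CPM in IZ and 378, 297 and 277 CPM in sham (1.75 ± 0.28, adjusted p = 3.44e-05), and cathepsin H (CTSH) rose by 3.29 ± 0.45.

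Complement rose in 9 of 15 cases and fell in none, with a median of 2.85, and 9 rose in every test with a library left out. The 3 chains of C1q, the starter of the classical pathway, moved together. C1QA had 120, 102 and 95 CPM in IZ, against 11.4, 7.07 and 11.5 CPM in sham (3.38 ± 0.46, adjusted p = 4.71e-06), C1QB rose by 3.57 ± 0.45 and C1QC by 3.12 ± 0.41. The central component C3 had 142, 115 and 92.7 CPM in IZ and 6.1, 11.6 and 10.8 CPM in sham (3.64 ± 0.55, adjusted p = 1.98e-05), and C2 rose by 4.59 ± 0.64. C4A rose by 2.85 ± 0.69, but its reads can be shared with near-identical copies. Antigen presentation rose in 7 of 8 cases (median 1.66). The class II genes SLA-DMB and SLA-DQB1 rose by 2.76 ± 0.36 and 2.27 ± 0.38, with SLA-DQB1 at 178, 273 and 233 CPM in IZ and 49.9, 34.7 and 56.8 CPM in sham. SLA genes are a family of like sequences, so their counts are uncertain.

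Chemokines and their receptors rose in 15 of 27 cases and fell in none (median 2.11). CCL2, which draws monocytes, had 32.1, 23.6 and 23.9 CPM in IZ and 7.14, 2.53 and 6.45 CPM in sham (2.25 ± 0.46, adjusted p = 0.000543). CCL21, made by lymphatic vessels, rose by 2.84 ± 0.67, CCL8 by 4.62 ± 0.70 and its family's receptor CCR1 by 4.84 ± 0.97. CXCL14 rose by 7.15 ± 1.24, or 5.95 without IZ 1, with 73.1, 16.6 and 14.9 CPM in IZ and 0.25, 0.533 and 0.0686 CPM in sham. Inflammatory cytokines and receptors were mixed, with 7 risen and 6 fallen of 27 (25.9% and 22.2%, beside 17.2% and 13.0% of all genes, median 0.77). The anti-inflammatory IL10 had 25, 8 and 8 counts in IZ and 0, 0 and 1 in sham, a pooled ratio of 34.5-fold (95% counting interval 5.86 to 1400), and IL18 rose by 3.63 ± 0.71.

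Neutrophil genes rose in 4 of 8 cases (median 2.55). CSF3R, the neutrophil growth factor receptor, had 8.39, 3.86 and 3.62 CPM in IZ and 0.3, 0.933 and 0.343 CPM in sham (3.58 ± 0.79, adjusted p = 0.00103). S100A12 had 4.73, 1.08 and 1.01 CPM in IZ and 0.3, 0 and 0.0686 CPM in sham (3.84 ± 1.02, adjusted p = 0.00443), a call lost without IZ 1 at 2.61. Only 3 of 20 T and NK cell genes rose and 1 fell, which are 15.0% and 5.0% beside 17.2% and 13.0% of all genes, and 0 fell without IZ 1 or Sham 2. The risen genes included NKG7, a granule protein of killer cells, at 31.2, 16.5 and 14 CPM in IZ and 1.9, 0.4 and 1.72 CPM in sham (3.80 ± 0.54, adjusted p = 9.09e-06), and the T cell adhesion protein CD2 (2.27 ± 0.60). Of 9 B and plasma cell genes 3 rose and 0 fell (33.3% risen, median 0.35), while the B cell receptor gene CD79A, at 39.6, 45.6 and 39.3 CPM in IZ and 57.4, 58.9 and 47.5 CPM in sham, was not called (-0.39 ± 0.22, adjusted p = 0.18). Interferon-stimulated genes rose in 11 of 25 cases (median 1.07), but in 6 without IZ 2, 7 without IZ 3, 7 without Sham 1 and 4 without Sham 2. In ISG20, an RNA nuclease of that group, IZ 1 was the lowest IZ library, with 1.26, 6.09 and 5.06 CPM in IZ and 0.05, 0 and 0.206 CPM in sham (5.34 ± 1.03, adjusted p = 0.000283).

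Genes of mitosis and cytokinesis were higher almost throughout. Of 51 tested, 47 rose and 0 fell (92.2%, beside 17.2% of all genes), with a median of 1.65. The list's mean level was 4.95, 4.64 and 4.68 in IZ and 3.99, 2.81 and 2.17 in sham, on the scale log2(CPM + 0.5). The IZ libraries lay close together and the shams were spread widely, with Sham 1 nearest to IZ. The count of risen genes was 28 without Sham 3, 32 without Sham 2, 34 without IZ 1 and 48 without Sham 1. It was 13 in the libraries of batch 2 alone, without both IZ 1 and Sham 2, an alternative chosen after seeing the data. CDK1, the kinase that starts mitosis, had 65.5, 50.4 and 48.2 CPM in IZ and 21.9, 10 and 4.19 CPM in sham (2.16 ± 0.48, adjusted p = 0.00114). Cyclin B2 (CCNB2), which activates CDK1, had 24.7, 25.6 and 21.3 CPM in IZ and 11.8, 2.27 and 2.13 CPM in sham (2.07 ± 0.42, adjusted p = 0.000516). Even Sham 1 stayed below the lowest IZ library for both. The mitotic transcription factor FOXM1 rose by 1.66 ± 0.41, the kinetochore subunit SPC25 by 2.24 ± 0.38, topoisomerase TOP2A by 1.68 ± 0.38, and ANLN, which pinches dividing cells apart, by 1.97 ± 0.47. Without Sham 1 the values of CCNB2 and FOXM1 were higher, at 3.45 and 2.68. AURKB, the kinase of the chromosomal passenger complex, rose by 1.28 ± 0.39, a call lost without Sham 3 (range 0.89 to 1.91). Macrophages, fibroblasts and muscle cells share these genes, so the dividing cell types cannot be told apart in bulk tissue.

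Fewer genes of DNA replication were called. Of 34, 11 rose and 0 fell (median 0.86), against 6 without IZ 1, 6 without Sham 2, 5 without Sham 3 and 21 without Sham 1. In the libraries of batch 2 alone, 4 replication genes rose. The mean level of the replication list was 4.23, 4.15 and 4.10 in IZ and 3.92, 3.13 and 2.57 in sham. MCM10, which starts replication forks, rose by 1.72 ± 0.41 and GINS1, a part of the replicative helicase, by 1.73 ± 0.39. Neither MCM2 nor MCM7, of the ring of that helicase, was called. MCM2 had 65.9, 65.5 and 53.9 CPM in IZ and 60.8, 30.7 and 14.2 CPM in sham (0.80 ± 0.40, adjusted p = 0.134, but called without Sham 1, in a range of 0.43 to 1.48), and MCM7 had 79.7, 78.8 and 73.9 CPM in IZ and 95.8, 92.5 and 39.8 CPM in sham (0.03 ± 0.24, adjusted p = 0.945). Sham 1 lay within or above the range of IZ for both. Among 21 cell cycle inhibitors and D cyclins, 3 rose and 2 fell, which are 14.3% and 9.52% beside 17.2% and 13.0% of all genes. CDKN2D rose by 1.60 ± 0.34, with 60.6, 59.2 and 52.9 CPM in IZ and 33, 11.6 and 11.5 CPM in sham. CDKN1B (p27), which keeps cells at rest, fell to 20.8, 22.9 and 33.9 CPM in IZ, against 34.5, 60.3 and 48.6 CPM in sham (-0.88 ± 0.22, adjusted p = 0.00354), and RBL2, a pocket protein of resting cells, fell as well (-1.47 ± 0.38). CCND2, a D cyclin that lets cells enter the cycle, was not called, at 196, 211 and 219 CPM in IZ and 168, 229 and 166 CPM in sham (0.15 ± 0.26, adjusted p = 0.686).

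**Figure D3:**
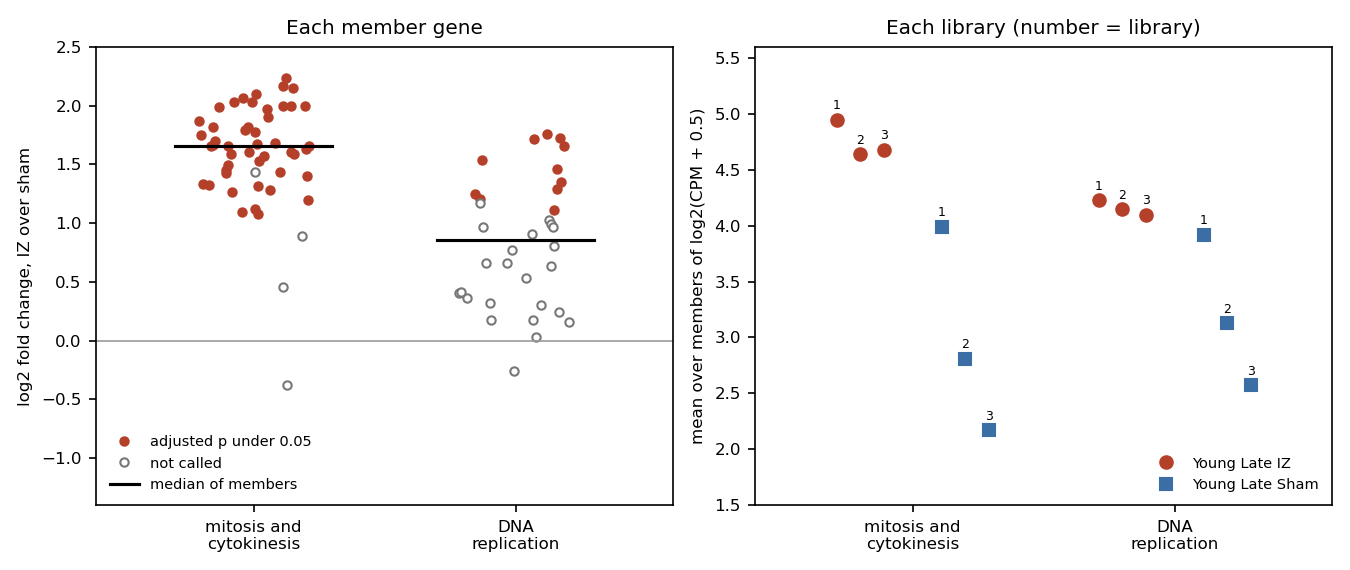
Left, log2 fold change of Young Late IZ over Young Late Sham for each mitosis and DNA replication gene, filled where the adjusted p is under 0.05, with the median as a bar. Right, mean log2(CPM + 0.5) of each list in each numbered library, where the 3 IZ libraries lie together at 4.64 to 4.95 for mitosis and the shams at 2.17 to 3.99.

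Most contractile genes of the fetal and stressed heart rose, and part of the mature sarcomere fell. Of 14 fetal or stress isoforms, 11 rose and 1 fell (median 1.89), with 7 risen without IZ 1. MYL4, the light chain of atria and of the fetal ventricle, had 3413, 3622 and 3225 CPM in IZ, against 407, 231 and 108 CPM in sham (3.78 ± 0.77, adjusted p = 0.000534). Skeletal actin (ACTA1), made by the fetal heart, had 12381, 9465 and 9140 CPM in IZ, against 3475, 2347 and 3245 CPM in sham (1.77 ± 0.35, adjusted p = 0.00035). Groups were far apart for both, and the shams differed among themselves in MYL4. XIRP2, an actin-binding protein of the intercalated disc that rises under stress, had 56.2, 49.3 and 58.6 CPM in IZ and 3.75, 1.07 and 2.33 CPM in sham (4.42 ± 0.91, adjusted p = 0.000564). NPPB, the natriuretic peptide of a strained ventricle, rose by 2.56 ± 0.77, with 1879, 1433 and 1176 CPM in IZ and 381, 314 and 65.6 CPM in sham, but its call was lost without Sham 3 (range 2.11 to 2.99). BMP10, a growth factor of the atria, was near 0 in both groups and was not tested, with no count in IZ and 0.15, 0 and 0 CPM in sham. Of 8 atrial genes, 3 rose and 1 fell (37.5% and 12.5%, beside 17.2% and 13.0% of all genes, median 0.57). Without IZ 1, IZ 3, Sham 1 or Sham 2, 2 atrial genes rose, and without IZ 1 or Sham 3, 0 fell. Of the fetal isoforms, slow skeletal troponin I (TNNI1), which the heart replaces after birth, was not called, at 796, 1323 and 1169 CPM in IZ and 1797, 1013 and 1035 CPM in sham (-0.23 ± 0.55, adjusted p = 0.789).

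The heart sarcomere list had 13 fallen and 1 risen gene of 30 (43.3% fallen, beside 13.0% of all genes), with a median of -0.48, and 8 fallen without IZ 1 or Sham 2. MYBPC3, the myosin-binding protein that tunes contraction, had 1404, 2160 and 2071 CPM in IZ, against 6022, 5651 and 6461 CPM in sham (-1.69 ± 0.33, adjusted p = 0.000313). MYOM2, the M-band protein of mature muscle, had 96.4, 275 and 259 CPM in IZ, against 1135, 1573 and 1925 CPM in sham (-2.88 ± 0.64, adjusted p = 0.00126). IZ 1 was the lowest library for both, and all IZ libraries were below the shams. The light chain kinase MYLK3 fell, at -1.51 ± 0.26. Cardiac troponin T (TNNT2), of the thin filament, was not called, at 7902, 10781 and 10755 CPM in IZ and 13522, 7591 and 10963 CPM in sham (-0.12 ± 0.41, adjusted p = 0.848). MYH6, the fast myosin heavy chain, fell by 0.77 on the log2 scale (adjusted p = 0.0144), a call lost without IZ 1, at -0.71.

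**Figure D4:**
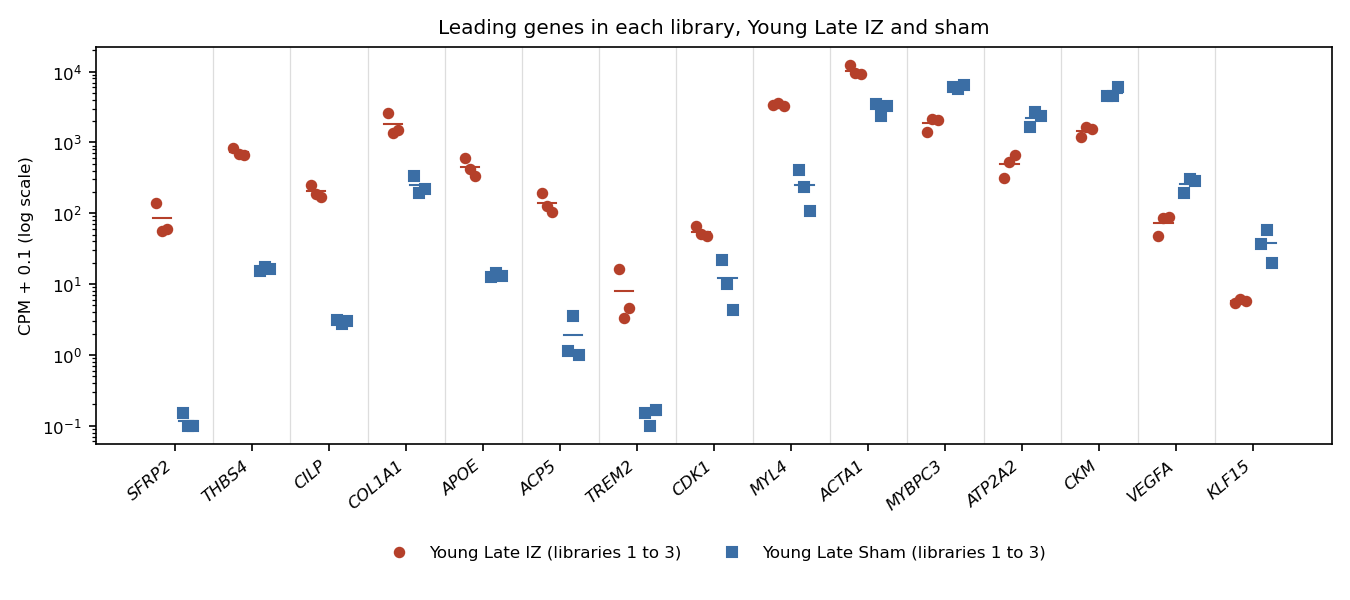
Level of 15 genes (CPM + 0.1, log scale) in each Young Late IZ library and each Young Late Sham library, with short bars at the group means. SFRP2, THBS4, CILP, APOE and MYL4 lie higher in every IZ library than in any sham, and MYBPC3, ATP2A2, CKM, VEGFA and KLF15 lie lower in every IZ library.

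Calcium handling fell in 8 of 18 cases and rose in 2 (median -0.48), with 1 risen without any single library but Sham 1. ATP2A2, the calcium pump that relaxes heart muscle, had 311, 527 and 655 CPM in IZ, against 1671, 2723 and 2339 CPM in sham (-2.17 ± 0.49, adjusted p = 0.00132). The release channel RYR2 had 86.3, 102 and 114 CPM in IZ, against 259, 497 and 549 CPM in sham (-2.11 ± 0.61, adjusted p = 0.00908), and the calcium-dependent kinases CAMK2D and CAMK2B had log2 fold changes of -1.93 ± 0.42 and -1.64 ± 0.31. Sarcolipin (SLN), an inhibitor of the pump that is an atrial gene in the adult, had 51, 20 and 12 counts in IZ and 1, 0 and 2 in sham, a pooled ratio of 23.3-fold (95% counting interval 7.7 to 115). Of 27 ion channels and gap junction genes, 6 fell and 2 rose (22.2% and 7.41%, beside 13.0% and 17.2% of all genes). The count of risen genes was 1 without IZ 2 or IZ 3 and 0 without IZ 1, Sham 2 or Sham 3. KCNIP2, the subunit that sets the early repolarising current, had 6.47, 14.8 and 11.7 CPM in IZ and 37.5, 65.6 and 60.1 CPM in sham (-2.31 ± 0.41, adjusted p = 0.000112), and ABCC9, of the ATP-sensitive potassium channel, fell (-1.99 ± 0.51). The gap junction gene GJA1 fell (-1.02 ± 0.34, adjusted p = 0.0221), a call lost without IZ 1, IZ 2 or Sham 3 (range -1.29 to -0.84).

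Cardiac transcription factors fell in 7 of 23 cases and rose in 3 (median -0.63), with 1 risen without IZ 3 or Sham 2. HEY2, a Notch target that keeps ventricular identity, had 11.7, 18.7 and 23.1 CPM in IZ, against 65.5, 79.5 and 81.5 CPM in sham (-2.08 ± 0.36, adjusted p = 9.65e-05). PRDM16, a factor of compact myocardium, fell to 2.01, 2.64 and 2.46 CPM in IZ, against 13.9, 10.7 and 11.9 CPM in sham (-2.37 ± 0.49, adjusted p = 0.000612). The core factors GATA4 (-0.41 ± 0.24, adjusted p = 0.194) and NKX2-5 (0.22 ± 0.30, adjusted p = 0.614) were not called. In the adrenergic, natriuretic and cyclic nucleotide group, 5 of 24 rose and 4 fell, which are 20.8% and 16.7% beside 17.2% and 13.0% of all genes, with 3 risen without Sham 3. The adenylyl cyclase ADCY6 had 50.9, 68 and 61.9 CPM in IZ and 258, 428 and 226 CPM in sham (-2.33 ± 0.53, adjusted p = 0.00145), whereas RGS2, a brake on receptor signals, rose by 2.60 ± 0.44 and the cyclic GMP phosphodiesterase PDE5A by 1.29 ± 0.25.

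Metabolic genes of mature heart muscle fell in part. Of 19 regulators, 9 fell and 0 rose (47.4% fallen, beside 13.0% of all genes), with a median of -0.72. KLF15, a factor that drives lipid and amino acid use, had 5.34, 5.95 and 5.71 CPM in IZ, against 36.9, 57.6 and 19.5 CPM in sham (-2.74 ± 0.57, adjusted p = 0.000636). PPARA, the receptor that switches on fat burning, had 0.89, 0.609 and 1.01 CPM in IZ, against 3.6, 8.13 and 3.71 CPM in sham (-2.55 ± 0.67, adjusted p = 0.00495). All IZ libraries were below all shams for both. ESRRA, a nuclear receptor of mitochondrial genes, and the thyroid hormone receptor THRA had log2 fold changes of -0.71 ± 0.20 and -0.98 ± 0.24. Fatty acid uptake and oxidation fell in 11 of 30 cases and rose in none (median -0.63), against 6 fallen without IZ 1 and 7 without Sham 3. PLIN5, which coats lipid droplets at mitochondria, had 5.29, 18.4 and 15.8 CPM in IZ and 48.9, 48 and 62 CPM in sham (-2.02 ± 0.44, adjusted p = 0.00102), and the lipase PNPLA2 fell (-1.23 ± 0.26).

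Of 35 genes of the tricarboxylic acid cycle and amino acid breakdown, 15 fell and 1 rose (median -0.52), with 8 fallen without IZ 1. Enzymes of branched-chain amino acids were among them. BCKDHB, of the dehydrogenase complex, had 7.54, 9.74 and 10.9 CPM in IZ and 30, 28.4 and 47.2 CPM in sham (-1.91 ± 0.39, adjusted p = 0.000543), and BCAT2, the mitochondrial transaminase, fell (-1.27 ± 0.27). The 1 risen gene was BCAT1, the cytosolic transaminase, at 15.9, 4.94 and 4.92 CPM in IZ and 0.65, 0 and 1.24 CPM in sham (3.60 ± 0.61, adjusted p = 6.52e-05). The value of BCAT1 was 2.72 without IZ 1. Muscle creatine kinase (CKM) had 1180, 1642 and 1553 CPM in IZ and 4507, 4583 and 5969 CPM in sham (-1.78 ± 0.43, adjusted p = 0.00227). BDH1, the ketone body dehydrogenase, also fell (-1.78 ± 0.32).

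Few genes of the respiratory chain were called in the fit over all 36 libraries. Of 42 nuclear oxidative phosphorylation genes, 4 fell (9.52%, beside 13.0% of all genes) and 0 rose, with a median of -0.23, and 1 fell without IZ 1 and 2 without Sham 3. Of the 4, the complex I subunit NDUFA9 kept its call with each library left out (-0.73 ± 0.21), with 130, 164 and 156 CPM in IZ and 260, 212 and 277 CPM in sham. Of the 13 genes of the mitochondrial genome, 0 were called by edgeR in this fit or by DESeq2 and 0 had an unadjusted p under 0.05 (median -0.62). Other fits called more. DESeq2 called 6 nuclear genes lower. A fit of the compared groups alone called 10 nuclear and 2 mitochondrial-genome genes lower, with 2217 lower over all genes. With RNA integrity as a covariate, 1 mitochondrial-genome gene fell. Glycolysis and glycogen genes were split, with 9 risen and 6 fallen of 34 (26.5% and 17.6%, beside 17.2% and 13.0% of all genes, median -0.02). Of these genes, 4 rose without IZ 1, 5 without Sham 2 and 3 without Sham 3. LDHA, which turns pyruvate into lactate, had 205, 195 and 215 CPM in IZ, against 53.6, 33.6 and 34 CPM in sham (2.34 ± 0.47, adjusted p = 0.000499). SLC16A3, the lactate exporter, had 40.2, 59.7 and 47.1 CPM in IZ and 13, 8.8 and 10.3 CPM in sham (2.18 ± 0.40, adjusted p = 0.000198). SLC2A4, the insulin-dependent glucose transporter of muscle, fell to 47.2, 84.8 and 77.8 CPM in IZ, against 178, 260 and 198 CPM in sham (-1.60 ± 0.31, adjusted p = 0.0003).

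Endothelial genes fell in 10 of 19 cases and rose in 2 (median -0.70), but only 2 fell without IZ 1 and 3 without Sham 2. The risen count was 1 without IZ 2, IZ 3 or Sham 1 and 0 without IZ 1 or Sham 3. S1PR1, the receptor that steadies vessel walls, had 12.5, 18.5 and 25.5 CPM in IZ, against 55.3, 82.7 and 84.5 CPM in sham (-1.98 ± 0.35, adjusted p = 0.000107), and TIE1 fell (-0.89 ± 0.20). Both kept their calls with each library left out. EPAS1, a hypoxia-inducible factor of endothelium, had 7.22, 11.7 and 11.1 CPM in IZ and 24.3, 56.9 and 29.2 CPM in sham (-1.88 ± 0.42, adjusted p = 0.00123). KDR, the VEGF receptor, fell (-1.09 ± 0.30, adjusted p = 0.00636), a call lost without IZ 1 at -0.93. PECAM1, carried by all endothelium, was not called, with 92.2, 89.5 and 91.2 CPM in IZ and 76.4, 106 and 72 CPM in sham (0.11 ± 0.21, adjusted p = 0.744). Of 8 lymphatic genes 2 rose (25.0%, beside 17.2% of all genes), and 1 rose without Sham 2. Of 9 epicardial and mesothelial genes 5 rose (55.6%, median 1.86), among them KRT18, a keratin of mesothelium (2.73 ± 0.66).

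The largest falls included genes outside the heart muscle lists. ADCYAP1R1, the receptor of the peptide PACAP, had 3.94, 3.32 and 3.18 CPM in IZ, against 13.3, 50.3 and 53.5 CPM in sham (-3.47 ± 0.56, adjusted p = 3.92e-05). FMO1, a flavin monooxygenase, had 6.65, 6.16 and 7.23 CPM in IZ, against 22.9, 153 and 38.9 CPM in sham (-3.41 ± 0.50, adjusted p = 1.35e-05), and without the high Sham 2 its value was -2.21. DDIT4L, an inhibitor of mTOR, had 23.4, 53.2 and 56.3 CPM in IZ, against 284, 315 and 398 CPM in sham (-2.91 ± 0.44, adjusted p = 1.81e-05). In all of them IZ lay below every sham, but the rule that named the largest falls took only genes without overlap between groups. IRS2, an adaptor of insulin signalling, fell, with 1.26, 2.1 and 1.74 CPM in IZ and 14.4, 22.5 and 11.4 CPM in sham (-3.24 ± 0.70, adjusted p = 0.000889). Some large chromatin regulators fell, the histone methyltransferase KMT2A to 1.31, 1.08 and 1.3 CPM in IZ, against 5.35, 16.1 and 7.76 CPM in sham (-2.93 ± 0.67, adjusted p = 0.00162), its relative KMT2C (-2.45 ± 0.56) and the acetyltransferase CREBBP (-2.38 ± 0.40). Sham 2 was the highest library for these 3. Gene length moved with the result over all tested genes. With the tested genes split into 5 groups by the length of their gene models, 14.0% of the longest group rose and 21.5% fell (median -0.16), and 15.7% of the shortest group rose and 7.4% fell (median 0.13). The part of length in these falls was not tested.

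Stress response genes rose in part. Of 24 genes of endoplasmic reticulum stress, 11 rose and none fell (median 0.70), with 6 risen without IZ 1 or Sham 3. ASNS, which makes asparagine under amino acid shortage, had 22.8, 20.2 and 16.1 CPM in IZ and 8.59, 8 and 5.22 CPM in sham (1.44 ± 0.33, adjusted p = 0.00139). PHGDH, the entry enzyme of serine synthesis, had 17.4, 10.6 and 10.5 CPM in IZ and 4.65, 1.87 and 0.686 CPM in sham (2.34 ± 0.46, adjusted p = 0.000403). HSPA5, the main chaperone of the compartment, was not called, at 199, 211 and 204 CPM in IZ and 175, 88.1 and 136 CPM in sham (0.62 ± 0.24, adjusted p = 0.0526), but passed without Sham 1 (range 0.39 to 0.87). Heat shock genes rose in 7 of 16 cases, led by the small muscle chaperones HSPB6 (1.48 ± 0.34) and CRYAB (1.34 ± 0.32), with HSPB6 at 1147, 1116 and 1213 CPM in IZ and 627, 252 and 366 CPM in sham. Immediate early genes rose in 6 of 20 cases and fell in 2, with 2 risen without IZ 1 and 1 fallen without Sham 1. FOS had 5.95, 6.16 and 6.22 CPM in IZ and 0.949, 1.73 and 0.686 CPM in sham (2.55 ± 0.48, adjusted p = 0.000228) and EGR2 rose by 3.03 ± 0.52. Of 29 cytosolic ribosomal protein genes 0 were called by edgeR or by DESeq2, and 1 had an unadjusted p under 0.05 (median 0.20).

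The border zone (BZ) libraries come from the same 3 pigs as the IZ libraries. With the pig as a block, edgeR called 0 of 14386 genes (0%), of which 1434 had an unadjusted p under 0.05, and DESeq2 called 79. IZ and BZ of pigs 1 and 3 were prepared in different library batches, and with batch as a further term edgeR also called 0 genes (1490 at an unadjusted p under 0.05). The values of several leading genes lay between IZ and sham in the border zone. THBS4 had 842, 696 and 662 CPM in IZ and 99.2, 632 and 362 CPM in BZ, higher in IZ in all 3 pigs (log2 IZ over BZ 1.31 ± 0.46, adjusted p = 0.376). APOE had 597, 425 and 332 CPM in IZ and 52.5, 290 and 80.1 CPM in BZ (2.02 ± 0.57, adjusted p = 0.363), again higher in IZ in all 3 pigs. BZ 2 was close to its IZ (Pearson correlation 0.993), while BZ 1 was closer to Sham 1 (0.979) than to its own IZ (0.957). BZ 1 was also closer to IZ 2 (0.973) and IZ 3 (0.976), of other pigs, than to IZ 1. BZ 2 and IZ 2 shared batch 2, as did BZ 1 and Sham 1, whereas IZ 1 was of batch 1 and held the lung transcripts. Pig, batch and lung content cannot be told apart in these correlations. MYL4 was high in both zones, with 3413, 3622 and 3225 CPM in IZ and 1718, 3072 and 2757 CPM in BZ (0.47 ± 0.36), and so was CDK1, with 65.5, 50.4 and 48.2 CPM in IZ and 40.3, 45.8 and 42.3 CPM in BZ (0.33 ± 0.25).

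A week after surgery the response differed from that at 1 day in pigs operated at the same age. The Young Early IZ, from pigs 3 days old at harvest, was set against its own shams in the same fit, and 1792 genes (12.3%) had a response that differed, 890 (6.12%) more positive and 902 (6.20%) more negative in Young Late IZ. Each response has its own 3 shams, and all Young Early IZ and sham libraries were prepared in library batch 1. The count leaned on single libraries, from 677 without Young Late Sham 2 to 2691 without Young Late Sham 1, and it was 848 and 858 without Young Early IZ 1 and IZ 3, 1086 and 1000 without Young Early Sham 1 and Sham 3, 996 and 968 without Young Late IZ 1 and IZ 2, and 1108 without Young Late Sham 3. Macrophage genes were more positive at 1 week in 11 of 25 cases, complement in 9 of 15, small leucine-rich proteoglycans in 6 of 12 and fibroblast genes in 9 of 16, with 1 fibroblast gene more negative. CILP had a log2 fold change of 6.14 in Young Late IZ and 0.45 in Young Early IZ, a difference of 5.69 ± 0.68 (adjusted p = 4.19e-05). APOE had 5.10 in Young Late IZ and -0.13 in Young Early IZ, a difference of 5.23 ± 0.93 (adjusted p = 0.00144). C1QA, CHAD, a cartilage matrix protein, and IGF1 differed by 3.83 ± 0.61, 5.88 ± 0.88 and 4.81 ± 0.74.

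Some muscle genes took opposite directions at these times. ACTA1 had log2 fold changes of 1.77 in Young Late IZ and -1.30 in Young Early IZ, both called, a difference of 3.08 ± 0.49 (adjusted p = 0.000466). HSPB6 had 1.48 in Young Late IZ and -1.56 in Young Early IZ, a difference of 3.04 ± 0.49 (adjusted p = 0.000506). Of 42 nuclear oxidative phosphorylation genes, 41 were called lower in Young Early IZ and 4 in Young Late IZ, and 11 responses differed, all more positive at 1 week (median difference 1.07). More negative at 1 week were 10 of 24 endoplasmic reticulum stress genes, 7 of 19 endothelial and 5 of 16 hypoxia genes. HSPA5 had 0.62 in Young Late IZ and 2.60 in Young Early IZ, a difference of -1.98 ± 0.34 (adjusted p = 0.00126). S1PR1, PDGFRA and KMT2A differed by -2.41 ± 0.48, -4.14 ± 0.90 and -4.31 ± 0.93.

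**Figure D5:**
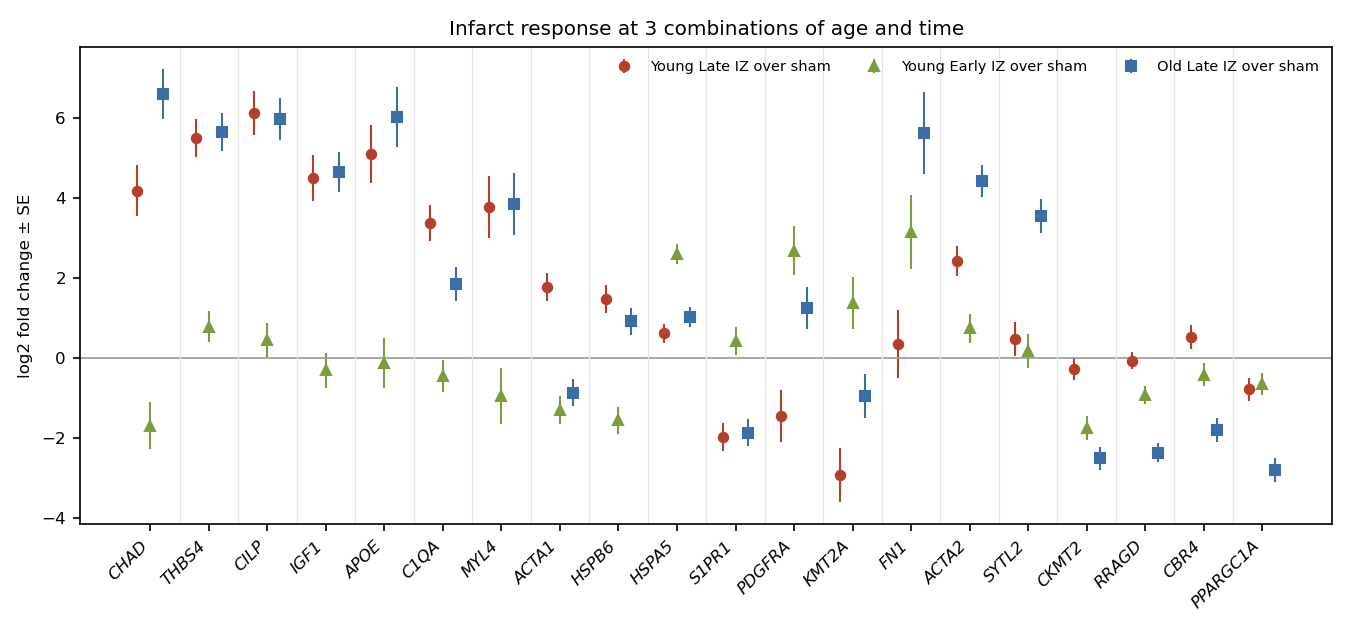
Log2 fold change ± SE against sham of 20 genes in Young Late IZ, Young Early IZ and Old Late IZ, with 3 libraries per group. CILP, APOE and C1QA are high in Young Late IZ and near 0 in Young Early IZ, while CKMT2 and RRAGD are near 0 in Young Late IZ, against low in Old Late IZ.

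Old Late pigs, operated at 14 days of age and 21 days old at harvest, gave a response at the same interval. All Old Late IZ and sham libraries were prepared in library batch 3, which no Young Late library had, so age and batch cannot be told apart. Their RNA integrity numbers were 7.1, 7.6 and 7.2 in IZ and 8.4, 8 and 7.8 in sham. Responses of both ages differed for 533 genes (3.67%), 342 (2.35%) more positive and 191 (1.31%) more negative in Young Late IZ. This count too leaned on single libraries. It was 43 and 124 without Young Late IZ 3 and IZ 2, 84 without Young Late Sham 2, 176 and 87 without Old Late IZ 1 and IZ 3, and 173 and 159 without Old Late Sham 1 and Sham 2. Neither edgeR nor DESeq2 called a difference among 51 mitosis genes (9 at an unadjusted p under 0.05, all more positive in Young Late IZ) or 25 macrophage genes (3 at an unadjusted p under 0.05). Genes of energy metabolism were among the differences, with 15 of 35 tricarboxylic acid cycle and amino acid genes (median 1.12) and 11 of 42 oxidative phosphorylation genes (median 1.14) more positive in Young Late IZ, and none more negative. Creatine kinase of mitochondria (CKMT2) had log2 fold changes of -0.28 in Young Late IZ, against -2.51 in Old Late IZ, a difference of 2.23 ± 0.40 (adjusted p = 0.00534). RRAGD, a GTPase that feeds amino acid signals to mTOR, had -0.06 in Young Late IZ, against -2.37 in Old Late IZ, a difference of 2.31 ± 0.32 (adjusted p = 0.00069). ACTA1 again turned direction, with 1.77 in Young Late IZ, against -0.87 in Old Late IZ, a difference of 2.64 ± 0.48 (adjusted p = 0.00638).

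Several matrix genes differed the other way. Of 11 collagens 3, of 21 matricellular genes 5 and of 27 collagen-modifying enzymes 4 were more negative in Young Late IZ than in Old Late IZ, and none more positive. FN1 had 0.35 in Young Late IZ, against 5.63 in Old Late IZ, a difference of -5.28 ± 1.27 (adjusted p = 0.0226), and this call was lost without Old Late IZ 3, Old Late Sham 1 or Sham 2, Young Late IZ 2 or IZ 3, or Young Late Sham 2. THBS4, CILP, MYL4 and APOE rose at both ages and their responses were not called different, with differences of -0.14 ± 0.56, 0.16 ± 0.64, -0.07 ± 0.98 and -0.93 ± 0.88. Counts of age differences in each direction differed between fits, with 338 more positive and 462 more negative in a fit of only the libraries compared, 245 and 207 with DESeq2 size factors, 545 and 506 with the DESeq2 test, and 169 and 253 with mitochondrially encoded genes left out.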

How the data were processed

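Raw read counts per gene were deposited by the authors as 1 table of 25880 genes and 36 pig heart libraries, per the file header and its whole-number values. The submitters' processing notes list bcl2fastq 2.19.0.316, Trimmomatic 0.36, STAR and featureCounts (Subread 1.5.1), and the genome build, annotation and strand setting are not given in the sources used here. Symbols came from a gene-name reference, matched by the gene identifiers of the table, and no sequence is shown because no genome was used. All 36 columns matched a label, and groups were taken from the labels. Each Young Late IZ or sham library is from a separate animal, and none repeated another (smallest mean chi-square per gene between libraries of a group 11.0).

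Genes were kept by filterByExpr of edgeR 4.0.16 (R 4.3.3, minimum count 10, minimum total 15) and scaled with TMM. They were fitted by robust quasi-likelihood over all 36 libraries with 1 mean per group, which leaves 24 residual degrees of freedom. This fit treats the IZ and BZ libraries of a pig as independent, which can overstate those degrees of freedom. With the animal as a random block, limma-voom called 3812 genes (2291 higher and 1521 lower) in Young Late IZ against sham, beside 4390. Differences between responses were contrasts in this fit, and IZ against BZ was fitted in the 24 infarct libraries with the animal as a block. P-values were adjusted by Benjamini-Hochberg over all tested genes. The fit was tested on simulated data. A fold against a group with no counts was computed against a floor of 3 counts over the group, and 95% intervals of pooled ratios cover counting error only.

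The genes and the 62 lists (1101 tested members) were chosen with earlier results of these data known. The naming rule took the 12 called genes with a symbol and no overlap that rose most and the 12 that fell most, at most 4 called members of each list, a fixed panel, and at most 5 genes in each direction per further comparison. Of the 200 genes used, 139 came from it. The other 61 were chosen after their values were seen: HBB, ACAN, COL5A3, THBS4, TNC, LOX, LOXL2, SERPINH1, PLOD2, ELN, FBN1, MMP2, MMP11, SFRP4, AXIN2, ALDH1A2, PRRX1, PI16, TCF21, PDGFRA, MYOCD, MDK, NRG1, TGFB1, VEGFD, CSF1R, FOLR2, LYVE1, TIMD4, GPNMB, ABCA1, OCSTAMP, TNFRSF11A, CTSB, C1QC, C4A, CCL2, IL10, CD79A, ISG20, CCNB2, FOXM1, ANLN, AURKB, MCM2, MCM7, TNNT2, SLN, GJA1, GATA4, NKX2-5, PDE5A, ESRRA, THRA, BCAT2, TIE1, KMT2C, CREBBP, HSPA5, SLC37A2 and FGF1. Alternatives were DESeq2 1.42.0 (test and size factors), limma-voom 3.58.1, other filters, covariates and sample sets, and each library left out in turn.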

Additional observations from a re-analysis of the deposited data

Results flagged for a closer look

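The results below were singled out because the response of Young Late IZ differed from that of another group's IZ, each against its own 3 shams, by a test of the difference itself (an interaction contrast in edgeR, Benjamini-Hochberg adjusted over all tested genes). Values are differences between log2 fold changes ± SE. Calls held with each of the 12 libraries of both comparisons left out in turn, except where a loss is stated. No cause was tested.

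Against Young Early IZ, the matrix and mesenchymal genes COL8A2 (5.95 ± 1.12), CHAD (5.88 ± 0.88), CILP (5.69 ± 0.68), THBS4 (4.72 ± 0.59), CRABP2 (6.71 ± 1.03) and IGF1 (4.81 ± 0.74) were more positive in Young Late IZ. COL8A2 had 5.80 in Young Late IZ and -0.15 in Young Early IZ, and THBS4 had 5.51 in Young Late IZ and 0.79 in Young Early IZ. Macrophage and antigen genes were more positive too, with APOE at 5.23 ± 0.93, ACP5 at 5.30 ± 1.16, C1QA at 3.83 ± 0.61 and SLA-DQB1 at 2.63 ± 0.52. Among muscle genes MYL4 (4.72 ± 1.03), ACTA1 (3.08 ± 0.49) and HSPB6 (3.04 ± 0.49) were more positive, as was the cell cycle inhibitor CDKN2D (2.03 ± 0.47). MYL4 had 3.78 in Young Late IZ and -0.94 in Young Early IZ.

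More negative in Young Late IZ than in Young Early IZ were TNFRSF11B, the decoy receptor of the osteoclast signal (-6.12 ± 1.21), the injury-induced factor KLF6 (-4.75 ± 0.97), KMT2A (-4.31 ± 0.93), PDGFRA (-4.14 ± 0.90), IRS2 (-3.91 ± 0.95), S1PR1 (-2.41 ± 0.48) and HSPA5 (-1.98 ± 0.34). PDGFRA had -1.45 in Young Late IZ and 2.69 in Young Early IZ. TNFRSF11B had 0.55 in Young Late IZ and 6.67 in Young Early IZ. KLF6 had -1.66 in Young Late IZ, not called by edgeR (adjusted p = 0.0586), and 3.09 in Young Early IZ. Weaker calls were those of ACTA2 (1.68 ± 0.51, adjusted p = 0.0326), lost without Young Early IZ 1, IZ 2 or Sham 3 or Young Late IZ 1, IZ 2, Sham 1 or Sham 3 (range 1.46 to 2.16), and of CKMT2 (1.47 ± 0.39, adjusted p = 0.0182), lost without Young Early IZ 1, IZ 3 or Sham 2 or Young Late IZ 2 or Sham 2 (range 1.24 to 1.78).

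Against Old Late IZ, more positive in Young Late IZ were CKMT2 (2.23 ± 0.40), ACTA1 (2.64 ± 0.48), RRAGD (2.31 ± 0.32), the carbonyl reductase CBR4 (2.34 ± 0.42), PPARGC1A, a coactivator of mitochondrial genes (2.03 ± 0.40), and FGF1, a growth factor of heart muscle (1.66 ± 0.34). PPARGC1A had -0.78 in Young Late IZ, against -2.81 in Old Late IZ, and its call and that of FGF1 were lost without Old Late IZ 3 (ranges 1.73 to 2.35 and 1.30 to 1.93). SYTL2, a protein of vesicle transport, was more negative in Young Late IZ (-3.07 ± 0.60), at 0.48 in Young Late IZ, against 3.56 in Old Late IZ. FN1 (-5.28 ± 1.27, adjusted p = 0.0226) and ACTA2 (-2.01 ± 0.51, adjusted p = 0.0285) were more negative as well. The call of FN1 was lost with any of 6 libraries left out (range -5.80 to -3.61), and that of ACTA2 without Old Late IZ 1, IZ 3 or any Old Late Sham, or Young Late IZ 2, IZ 3 or Sham 2 (range -2.27 to -1.79).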

How the results depend on the processing

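No paired analysis was possible because infarcted and sham pigs are different animals and the labels give them no shared replicate numbers. The 4390 calls of Young Late IZ against Young Late Sham became 2840 with a further minimum log2 fold change of 1, 1689 (1094 higher and 595 lower) in the libraries of batch 2 alone, an alternative chosen after seeing the data, and 2807 to 4428 with 1 library left out. Of the 4390 genes, 2763 (62.9%) kept their call without IZ 1, 3009 (68.5%) without Sham 2 and 1662 (37.9%) in batch 2 alone. Leaving out IZ 1, Sham 2 or both also changes the number of libraries.

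The 1792 differences from Young Early IZ became 599 with RNA integrity as a covariate, 3118 in the compared groups alone, 1160 with limma-voom and the animal as a random block, and 677 to 2691 with 1 library left out. The 533 differences from Old Late IZ became 1051 with the DESeq2 test, 800 in the compared groups alone, 285 with no count filter, and 43 to 752 with 1 library left out. The median difference over all genes was 0.04, and -0.09 with mitochondrially encoded genes left out, a shift that the age differences are to be read against. Between IZ and BZ the count of 0 became 79 with DESeq2 (58 higher and 21 lower in IZ), 11 with no count filter (6 higher and 5 lower), and 0 to 8 with 1 pig left out. It was 0 with no animal block, and 0 with library batch as a further term, an alternative also chosen after seeing the data.

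Genes not called in IZ against sham changed sign in places. FBN1 was at 0.13 with RNA integrity as a covariate and 0.13 in batch 2, with a range of -0.21 to 0.06 over libraries left out. MCM7 was at -0.01 with RNA integrity, -0.03 in the compared groups alone and -0.01 with mitochondrially encoded genes left out (range -0.28 to 0.24). HBB was at -0.34 in batch 2 (range -0.10 to 2.04). Ranges over libraries left out crossed 0 for FN1 (-0.12 to 2.02), TNNI1 (-0.38 to 0.10), TNNT2 (-0.32 to 0.08) and RRAGD (-0.13 to 0.02). Of the 176 called genes named here, 160 kept their call with each of the 6 libraries left out and 139 in batch 2 alone. Of the genes given as not called, ELN (1.04) and GATA4 (-0.46) were called in the compared groups alone, PDGFRA (-1.60) and HSPA5 (0.61) by DESeq2, and HSPA5 (0.68) also by limma-voom. KLF6 was called lower in the compared groups alone (-1.69), by DESeq2 (-1.72) and with library batch as a term (-1.73). Lists with no fallen gene had 1 without Sham 1 for TGF-beta, chemokines and epicardium, 1 without Sham 3 for endoplasmic reticulum stress and 1 without IZ 2 for heat shock. The metabolic regulators had 1 risen gene without Sham 1. The cause of these changes was not tested. With 3 libraries a group and 8.1 M counts in Sham 2, folds of genes with few sham counts have wide counting intervals.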

Other observations

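Some of the larger shifts lay outside the gene groups described above. SLC2A5, the fructose transporter, had 22.7, 9.07 and 8.25 CPM in IZ and 0.0999, 0 and 0.137 CPM in sham (log2 fold change 7.08 ± 0.80, adjusted p = 4.35e-07). SLC37A2, a sugar phosphate transporter of macrophages, rose by 4.66 ± 0.70, and S100A4, a calcium-binding protein of moving cells, by 6.65 ± 1.02, with 43.2, 29.7 and 19.4 CPM in IZ and 0.45, 0.133 and 0.206 CPM in sham. CAPN6, a calpain of developing muscle, had 149, 79 and 79 counts in IZ and 1, 0 and 2 in sham, a pooled ratio of 86.2-fold (95% counting interval 29.2 to 420). These genes kept their calls with each of the 6 libraries left out.

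Of 11 embryonic and fetal growth genes, 1 rose and 1 fell (9.09% each, beside 17.2% and 13.0% of all genes). The imprinted growth genes MEST and PEG3 took opposite directions. MEST had 20.6, 19.1 and 19.3 CPM in IZ, against 6.2, 3.33 and 3.16 CPM in sham (2.18 ± 0.44, adjusted p = 0.000452), and PEG3 had 2.39, 4.4 and 3.91 CPM in IZ, against 11.9, 18.8 and 20.3 CPM in sham (-2.26 ± 0.50, adjusted p = 0.00121). Neither gene overlapped between groups. KLHL38, a gene of striated muscle, fell to 2.95, 11.6 and 9.26 CPM in IZ, against 71.5, 48.3 and 58.9 CPM in sham (-2.92 ± 0.50, adjusted p = 7.26e-05), and IZ 1 was the lowest library. Of 9 skeletal muscle genes 4 rose (median 1.41), with 2 risen without IZ 1 or Sham 2 and 1 without Sham 3. Embryonic myosin MYH3 had 79.9, 57.6 and 51.6 CPM in IZ and 19.1, 16.8 and 15.9 CPM in sham (1.87 ± 0.54, adjusted p = 0.00965), a call lost without IZ 1 at 1.61.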
